A study of Mus musculus with 19 samples.

Results

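The respiratory chain genes examined here are 88 protein-coding genes, chosen by symbol, that encode subunits of complexes I to V and are listed in all 4 expression tables of the series. They are 88 of the 15235 genes common to those tables. Of them, 13 lie in the mitochondrial genome (symbols beginning mt-) and 75 in the nucleus. By complex, the mt- genes are 7 of complex I, 1 of complex III, 3 of complex IV and 2 of complex V, and the nuclear genes are 36, 4, 8, 13 and 14 of complexes I, II, III, IV and V.

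RNA came from B lineage cells sorted from spleen or bone marrow of mice that had all been immunized with sheep red blood cells and were taken on day 28. The 19 libraries form 6 groups. Splenic germinal centre B cells, gated as CD95+ GL7+, comprise 4 libraries labelled Pik3cg knockout and 3 labelled wild type. Splenic naive B cells comprise 3 labelled knockout and 3 labelled wild type, and antibody-secreting cells labelled wild type come from spleen (n = 3) and bone marrow (n = 3). Pik3cg encodes a catalytic subunit of phosphoinositide 3-kinase. Strain, age and the kind of deletion are not stated in the labels, and the tables head the 9 naive and antibody-secreting columns labelled wild type as HET. Groups are named here by the sample labels, as KO-labelled and WT-labelled libraries. The labels do not tie libraries of different cell types to the same mouse, and p-values measure the spread between these libraries.

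The respiratory chain passes electrons from NADH and succinate to oxygen and stores the energy as a proton gradient that ATP synthase, complex V, turns into ATP. The mitochondrial genome supplies core subunits of complexes I, III, IV and V as a few long transcripts that are cut into separate RNAs, whereas every subunit of complex II and most subunits of the others are made from nuclear genes and imported. Activated and antibody-secreting B cells are known to respire more than resting ones.

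Values are read counts scaled to 1000000 assigned reads per library (CPM), at depths of 10.2 to 21.6 M reads per library. The labels were not all borne out by marker genes. Rgs13, a germinal centre marker, stood at 1139, 725, 1160 and 1294 CPM in the 4 KO-labelled germinal centre libraries and was listed at 0 in all 3 labelled wild type. Gcsam and S1pr2 were likewise listed at 0 there, whereas Fas, which encodes the gated CD95, spanned 210 to 285 CPM and 197 to 226 CPM. Bcl6, the factor that defines germinal centre B cells, stood at 26.3 to 45.5 CPM and 0.41 to 1.62 CPM. The 3 WT-labelled libraries may therefore not hold germinal centre cells, and every contrast called germinal centre below compares the libraries by label and gate only. Of 8 germinal centre markers, 7 were higher in the KO-labelled libraries. Other markers moved with the same contrast. Of 15 T cell markers, 13 were tested and 10 were higher, with a summed level of 1172 to 2442 CPM against 68.3 to 119.6 CPM, and 7, among them Cd3d, Cd3e and Cd3g, were at 0 in every library labelled wild type. Macrophage markers were higher for 3 of 10 tested (summed 154.1 to 1781 CPM against 77.1 to 202.2 CPM) and erythroid markers for 3 of 4 (29.7 to 2985 CPM against 0.051 to 2.41 CPM). Only genes averaging 10 CPM or more over the germinal centre libraries were tested. Markers at 0 in every WT-labelled library, Rgs13, Gcsam and S1pr2 among them, passed that filter through the KO-labelled libraries alone. Such markers could only be called higher, so these counts of calls are no separate support. Of 7 antibody-secreting markers 4 were lower, namely Prdm1, Xbp1, Irf4 and Mzb1, each without overlap. Xbp1, for example, stood at 356 to 541 CPM against 2459 to 3742 CPM. The sums over the 7 overlapped (3762 to 11787 CPM against 6741 to 10986 CPM), but Jchain made up most of the KO-labelled ones. Jchain leaned the other way, at 2833 to 10421 CPM against 2071 to 4775 CPM, and was not called. Of 5 naive B cell markers 2 were higher and 1 lower, namely Fcer2a, at 43.0 to 82.1 CPM against 1525 to 2439 CPM. Of 7 general B cell markers 3 were higher and 1 lower. The part of these cell differences in the results below was not tested, and in sorted bulk RNA fewer cells of a type cannot be told apart from less RNA per cell. Pik3cg itself stood at 66.0, 52.8, 6.6 and 9.0 CPM in the KO-labelled germinal centre libraries and 56.5, 34.3 and 19.4 CPM in WT-labelled ones, so it does not check the labels. In naive cells it stood at 94.98 to 126.8 CPM and 110.1 to 114.5 CPM, no marker of these lists was called, and T cell markers summed to 85.4 to 117.1 CPM against 95.5 to 132.9 CPM. WT-labelled germinal centre replicate 3 stood apart, with Xist listed at 0 and Ddx3y at 159.2 CPM. Every other germinal centre library listed Ddx3y at 0. Whether this library came from a mouse of the other sex was not tested.

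Most mitochondrially encoded members were higher in the KO-labelled germinal centre libraries. Of 13 tested, 8 were higher and 0 lower at a Benjamini-Hochberg adjusted p under 0.05, where 13.6% of all 8522 genes tested were called, 8.54% as higher and 5.09% as lower. Their median log2 fold change (log2FC, KO-labelled over WT-labelled, on log2(CPM + 1)) was 0.59, against 0.03 over all genes tested. The 13 genes share their transcripts and are not independent, so the shares of all genes are no measure of chance for them. The 8 called genes did not overlap between the groups, as held for 15.6% of all genes in that direction. They were mt-Nd1, mt-Nd2, mt-Nd4 and mt-Nd5 of complex I, mt-Cytb of complex III, mt-Co1 of complex IV and both mt- genes of complex V.

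mt-Cytb encodes cytochrome b, the only complex III subunit made in the mitochondrion. It stood at 10019, 11857, 14025 and 13232 CPM in the KO-labelled libraries and at 5244, 6684 and 7616 CPM in WT-labelled ones. Every KO-labelled library was above every WT-labelled one, and the log2FC was 0.92 (SE 0.17, limma adjusted p = 0.00782). mt-Nd5, a proton-pumping subunit of complex I, stood at 876, 929, 1198 and 1140 CPM against 566.5, 561 and 530 CPM. Its groups were also apart, with the smallest adjusted p of the mt- genes (log2FC 0.89, SE 0.14, limma adjusted p = 0.00415). mt-Nd2, another membrane subunit, stood at 528, 479, 488 and 586 CPM in the former and 270, 263.0 and 354.8 CPM in the latter, with a log2FC of 0.82.

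mt-Atp8 and mt-Atp6 encode subunits of the membrane part of ATP synthase and mt-Co3 encodes a core subunit of cytochrome c oxidase. The 3 genes lie end to end on one strand of the mitochondrial genome, and their junctions are shown because mt-Atp8 and mt-Atp6 were called and mt-Co3 was not. mt-Atp8 (M:7766-7969) shares 43 bases with mt-Atp6 (M:7927-8607), in capitals in the first sequence. mt-Atp6 and mt-Co3 (M:8607-9390) share 1 base, in capitals in the last 60 bases of mt-Atp6 and the first 60 of mt-Co3. All are 5′ to 3′ on the plus strand of mm10, from the GENCODE M21 transcripts.
mt-Atp8: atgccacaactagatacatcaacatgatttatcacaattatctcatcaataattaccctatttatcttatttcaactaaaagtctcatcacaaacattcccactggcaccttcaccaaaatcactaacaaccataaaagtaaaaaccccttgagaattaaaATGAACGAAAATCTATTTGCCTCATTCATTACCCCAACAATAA
mt-Atp6 end: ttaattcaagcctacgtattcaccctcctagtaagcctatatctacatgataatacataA
mt-Co3 start: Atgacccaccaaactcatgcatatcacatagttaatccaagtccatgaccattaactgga

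In the germinal centre libraries, mt-Atp6 stood at 5468, 6124, 6709 and 5830 CPM where KO-labelled and at 3126, 2908 and 4267 CPM where WT-labelled. Its groups were apart, with a log2FC of 0.83 (SE 0.15, limma adjusted p = 0.00805). mt-Atp8 followed with 1288, 1535, 1570 and 1346 CPM against 690.5, 715.7 and 1083 CPM, a log2FC of 0.82, although reads in the shared bases cannot be told apart between the 2 genes. Its neighbour mt-Co3 stood at 1126, 995.6, 1040 and 1075 CPM against 1110, 1211 and 1396 CPM. The mt-Co3 groups overlapped, and its log2FC of −0.22 did not pass (SE 0.12, limma adjusted p = 0.271). mt-Nd3, the next gene along and a small complex I subunit, was at only 7.8 to 14.1 CPM and 13.7 to 26.1 CPM, with a log2FC of −0.72 that did not pass (SE 0.57, limma adjusted p = 0.448).

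The remaining called mt- genes had smaller values of the log2FC. mt-Co1, the catalytic subunit of cytochrome c oxidase, stood at 4963, 5493, 6490 and 5230 CPM against 3756, 3617 and 3968 CPM (log2FC 0.55, SE 0.12). mt-Nd4 and mt-Nd1, of the membrane arm of complex I, had log2FC values of 0.71 and 0.59. The 3 other genes without a call were mt-Nd6 (0.40), the only protein gene on the opposite strand, mt-Nd4l (0.37) and mt-Co2 (0.25), which carries the copper site that receives electrons from cytochrome c. All 3 overlapped between the groups.

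The mt- calls did not rest equally on all libraries. mt-Nd2, mt-Nd5, mt-Cytb and mt-Atp6 were called in each of 18 alternative settings, 7 of which left out 1 library. Without WT-labelled replicate 1, or without its replicate 2, those 4 were the mt- genes still called, and without both KO-labelled replicate 1, which had the most erythroid and macrophage RNA, and WT-labelled replicate 3 it was 6 genes. That last choice was made after the data were seen.

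In naive B cells no gene was called, among the mt- members or among all 8832 tested (0.0%), and 587 genes had an unadjusted limma p under 0.05, or 6.65%. The mt- log2FC values ran from −0.22 to 0.97. Of the 13 mt- genes, 11 had an unadjusted p under 0.05, all with higher values in the KO-labelled libraries, where 3.68% of all genes did so in that direction. The smallest adjusted p among them was 0.728. In 11 of 13 every KO-labelled library was above every WT-labelled one (5.99% of all genes), and in mt-Nd3 every one was below (7.61%). The median log2FC of the 13 was 0.68, against −0.01 over all genes tested. Because the 13 are not independent, these counts do not stand for 11 separate results.

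mt-Cytb stood at 4500, 5950 and 4531 CPM in the KO-labelled naive libraries and 2142, 3080 and 2787 CPM in WT-labelled ones (log2FC 0.91, SE 0.16). mt-Nd5 stood at 583, 698 and 541.5 CPM against 235.3, 394.9 and 317.3 CPM (log2FC 0.97, SE 0.19). Both sets were apart although neither passed after adjustment. mt-Atp6 stood at 2852, 3235 and 2937 CPM against 1267, 2025 and 1642 CPM, and mt-Atp8 at 199.2, 224.5 and 206.9 CPM against 88.8, 145.6 and 120.8 CPM. The neighbouring mt-Co3 was again nearer to equal, at 1872, 1565 and 1985 CPM against 1501, 1733 and 1509 CPM, with overlapping groups and a log2FC of 0.19 (SE 0.11). mt-Nd3 was at 20.3 to 23.8 CPM against 24.2 to 29.7 CPM, a log2FC of −0.22.

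The mt- genes thus stood in a like order in both cell types, which share no library. Across the 13 genes, the 2 sets of log2FC values had a Pearson r of 0.93 and a Spearman rho of 0.77, a description across genes that share their transcripts and are not independent. mt-Nd3 (−0.72 in germinal centre and −0.22 in naive libraries), a gene at low CPM, and mt-Co3 (−0.22 and 0.19) were the lowest in both sets. Pearson r leans on such end values, and it was not computed without them. Across 69 nuclear members tested in both, r was 0.08 and rho 0.18. In the test of the difference between the contrasts of the 2 cell types, 0 of 13 mt- genes were called, where 7.83% of 8871 genes were. That test had 1 mt- gene at an unadjusted p under 0.05, mt-Co3, where 12.1% of all genes were so as higher and 8.65% as lower (log2 difference −0.41, limma adjusted p = 0.160), and it does not show that the contrasts are equal. The 95% interval of the difference for mt-Cytb, for example, ran from −0.53 to 0.56. The mitochondrial ribosomal RNAs, which are no members, were higher without overlap in 3 of 4 comparisons. mt-Rnr2 stood at 3426 to 4388 CPM against 1572 to 3148 CPM in germinal centre libraries and 4550 to 5372 CPM against 3953 to 4544 CPM in naive ones, and mt-Rnr1 at 944 to 1144 CPM against 782 to 892 CPM in naive ones. The mt-Rnr1 groups overlapped in germinal centre libraries (411 to 536 CPM KO-labelled, 125 to 625 CPM WT-labelled), and WT-labelled replicate 3 was the lowest.

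**Figure D1:**
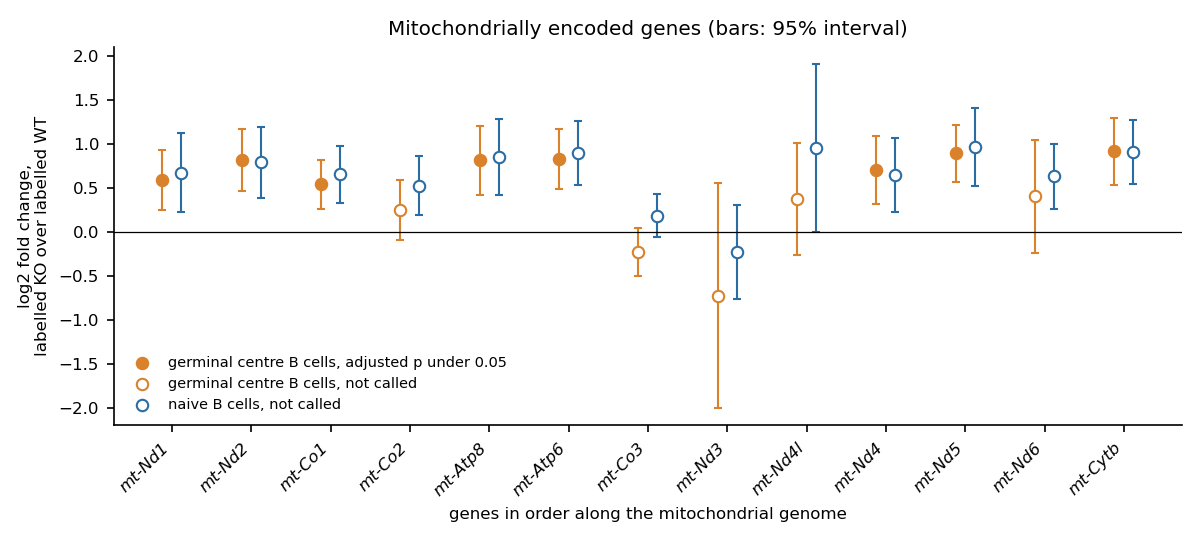
Log2 fold change of KO-labelled over WT-labelled (y axis, log2(CPM + 1) scale) for the 13 mt- genes in their order along the mitochondrial genome (x axis), in germinal centre (orange) and naive B cells (blue), with 95% intervals; filled points passed the adjusted threshold. The points dip at mt-Co3 and mt-Nd3 in both cell types.

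Among the nuclear members calls went both ways. In germinal centre B cells 73 of 75 passed the filter on low values (a mean of 10 CPM), and 9 were higher and 4 lower, or 13 of 73 beside 13.6% of all genes. Their median log2FC was 0.14. KO-labelled libraries were all above in 22 and all below in 7 of them, beside 15.6% and 11.7% of all genes. With immunoglobulin reads taken out of the library total the split was 4 higher and 4 lower. Cox6b2 and Atp5g2 did not pass the filter. Of the nuclear members 70 were tested in naive B cells and 0 called. At an unadjusted limma p under 0.05 there were 0 higher and 3 lower (Ndufv1, Cox6a1 and Atp5a1), beside 2.97% of all genes lower. Of the 70, 58 had a value below 0 and the median was −0.15, against −0.01 for all genes.

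**Figure D2:**
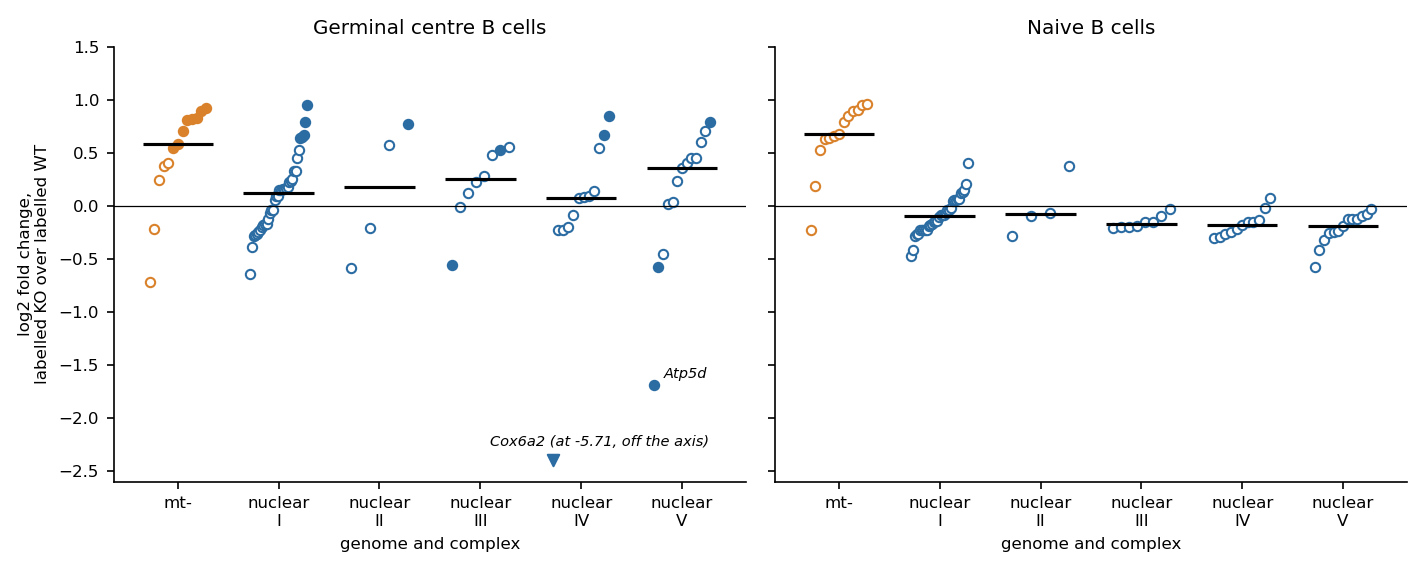
Log2 fold change of KO-labelled over WT-labelled (y axis, log2(CPM + 1) scale) for the mt- members (orange) and the nuclear members of each complex (blue), in germinal centre and naive B cells; each point is a gene, filled where called, and lines are medians. The mt- median is 0.59 and 0.68, above every nuclear complex in both panels.

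Complex I, which takes electrons from NADH, had 36 nuclear members tested in germinal centre libraries, with 4 higher, 0 lower and a median log2FC of 0.12, beside 8.54% of all genes called higher and 5.09% lower. Ndufs8, which holds iron-sulfur clusters, stood at 230, 273, 247 and 233 CPM where KO-labelled and at 136, 151 and 136 CPM where WT-labelled. The groups were apart, and the log2FC of 0.79 passed (SE 0.15, limma adjusted p = 0.00958). Ndufs1, the largest subunit of the electron-input arm, rose with a log2FC of 0.95, and the accessory subunits Ndufb7 and Ndufb10 with 0.67 and 0.64. Those 3 calls were lost when single libraries were left out, in 5 or 6 of 7 cases each. In naive B cells the 34 complex I members tested had a median of −0.10, and Ndufs8 stood at 49.6, 48.1 and 54.7 CPM against 58.9, 52.0 and 58.4 CPM. Per kilobase of transcript, Ndufa4, a subunit now placed with complex IV that this symbol rule counts under complex I, was the highest of the 36 on the mean of 6 group means (275.4 CPM per kb) and Ndufb2 the lowest (13.2 CPM per kb). These ranks depend on the length used, the median over a gene's annotated transcripts, which was 2413 bases for Ndufb2. By CPM, Ndufb2 (means of 61.1 KO-labelled and 74.1 WT-labelled) stood above Ndufb4 (37.9 and 32.0) in germinal centre libraries.

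Complex II, succinate dehydrogenase, links the citric acid cycle to the chain and is wholly nuclear. Its iron-sulfur subunit Sdhb stood at 596, 501, 618 and 704 CPM against 385.5, 353.5 and 317 CPM in germinal centre libraries. Its groups were apart and it passed (log2FC 0.77, SE 0.15, limma adjusted p = 0.0102). The flavoprotein subunit Sdha stood at 440.2, 426, 314 and 243 CPM against 246.5, 239 and 214 CPM, which did not pass (log2FC 0.57, limma adjusted p = 0.125). The membrane anchors Sdhc and Sdhd had log2FC values of −0.58 and −0.20, and neither passed. The 4 subunits of one complex therefore had values on both sides of 0. In naive B cells Sdhb was at 36.6 to 42.3 CPM and 38.0 to 47.6 CPM, and Sdhd had the highest log2FC of the 4, 0.38, without passing.

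Complex III, which passes electrons to cytochrome c, had 1 member higher and 1 lower of 8, beside the same 8.54% and 5.09% of all genes. Uqcrc1, a core subunit, stood at 779, 712.5, 602 and 778 CPM against 538, 507 and 444 CPM in germinal centre libraries (log2FC 0.53, SE 0.14, limma adjusted p = 0.0392). Uqcrq, a small subunit, went the other way with 152, 189.7, 193.5 and 187.3 CPM against 259.4, 249.0 and 289.2 CPM (log2FC −0.56, limma adjusted p = 0.0492). Both groups were apart, yet the call for Uqcrq was lost when any 1 of the 7 libraries was left out and that for Uqcrc1 in 6 of 7 cases. All 8 had naive values below 0, from −0.20 to −0.03, none past the threshold. Per kilobase, Uqcr10 was the highest (286 CPM per kb) and Uqcrc2 the lowest (42.2 CPM per kb).

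Complex IV, cytochrome c oxidase, reduces oxygen and is the complex whose nuclear subunits come most often in tissue forms. Cox6b1, the common form of a subunit that faces the intermembrane space, stood at 329, 326, 368 and 398 CPM against 234.6, 186.7 and 173.4 CPM in germinal centre libraries. It passed (log2FC 0.85, SE 0.16, limma adjusted p = 0.00939) with groups apart. Cox5b also rose (0.67, limma adjusted p = 0.0378), in a call lost in 6 of 7 cases of leaving out 1 library. The remaining complex IV members tested, other than Cox6a2, ran from −0.23 (Cox4i1) to 0.55 (Cox7b) and did not pass.

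Cox6a2 is the form of subunit VIa made in heart and skeletal muscle, and Cox6a1 is its common counterpart. Cox6a2 (chr7:128205435-128206387, mm10) stood at 110.8, 79.3 and 40.0 CPM in the WT-labelled germinal centre libraries. In KO-labelled ones it stood at 2.5 CPM in replicate 1 and was listed at 0 in the other 3. It was listed at 0 in all 6 naive libraries and reached at most 2.0 CPM in antibody-secreting cells. The log2FC was −5.71 (SE 0.84, limma adjusted p = 0.00283), a size that depends on the added count. It was called in each of the 18 alternatives, the one nuclear member of which that held, with values from −8.29 to −3.78. It passed the filter on low values through the WT-labelled libraries alone. Cox6a1 did not differ past the threshold, at 306, 215.5, 265 and 265 CPM against 285, 279.9 and 268 CPM (log2FC −0.09, 95% interval −0.45 to 0.27). Cox6b2, the testis form paired with Cox6b1, stood at 0, 4.8, 0 and 0 CPM against 9.3, 17.2 and 18.2 CPM, groups that did not overlap but were under the filter, and reached at most 1.1 CPM in naive libraries. Cox6a2 and Cox6b2 were thus both listed in the WT-labelled germinal centre libraries above every other group. Only the KO-labelled germinal centre group is in the same table.

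Other tissue forms were near 0 or in part of the tables. Cox7a1, the muscle form of subunit VIIa, is listed in the germinal centre table alone, at 0 to 1.7 CPM, while its common counterpart Cox7a2 stood at 97.7 to 135 CPM there. Cox4i2 and Ndufa4l2, forms linked to low oxygen, are listed in the other 3 tables alone, at 0 in all naive libraries and at most 0.46 and 1.0 CPM in antibody-secreting cells. Cox4i1, the common form, was the highest complex IV member per kilobase (332 CPM per kb) and Cox6b2 the lowest (6.35 CPM per kb). Cox7a2l, an assembly factor for supercomplexes named after subunit VIIa, stood at 424 to 548 CPM in naive libraries. It stood at 216 to 349 CPM in germinal centre ones, which are in a separate table. Cox8a, Cox6c and Cox7c, common subunits, had germinal centre log2FC values of 0.07, 0.09 and −0.23 and naive ones of −0.18, −0.30 and −0.25.

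Complex V had 1 nuclear member higher and 2 lower of 13 tested in germinal centre libraries, beside 8.54% and 5.09% of all genes. Atp5j, of the stalk that holds the enzyme still, stood at 368.1, 354.7, 447.5 and 361.7 CPM against 232, 197 and 231 CPM (log2FC 0.80, SE 0.15, limma adjusted p = 0.00864). Atp5b, the catalytic beta subunit, stood at 385.5, 382.4, 357.3 and 407.8 CPM against 630.0, 550.1 and 541 CPM (log2FC −0.58, SE 0.13, limma adjusted p = 0.0162). Atp5d (chr10:80138632-80145818, mm10), the delta subunit of the rotating stalk, stood at 59.2, 44.5, 29.3 and 26.1 CPM against 138.9, 143.0 and 94.7 CPM (log2FC −1.68, SE 0.35, limma adjusted p = 0.0131). The alpha subunit Atp5a1, of the same catalytic head as Atp5b, stood at 489, 406, 569 and 488 CPM in KO-labelled libraries and at 248 to 384 CPM in WT-labelled ones, with a log2FC of 0.60 that did not pass (limma adjusted p = 0.0662). The calls for Atp5b and Atp5d were lost without WT-labelled replicate 1 or without replicate 2. In naive B cells all 13 tested had values below 0, with a median of −0.19. Per kilobase, Atp5o, of the peripheral stalk, was the highest (194.9 CPM per kb) and Atp5g2, a form of the membrane ring subunit, the lowest (13.0 CPM per kb).

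**Figure D3:**
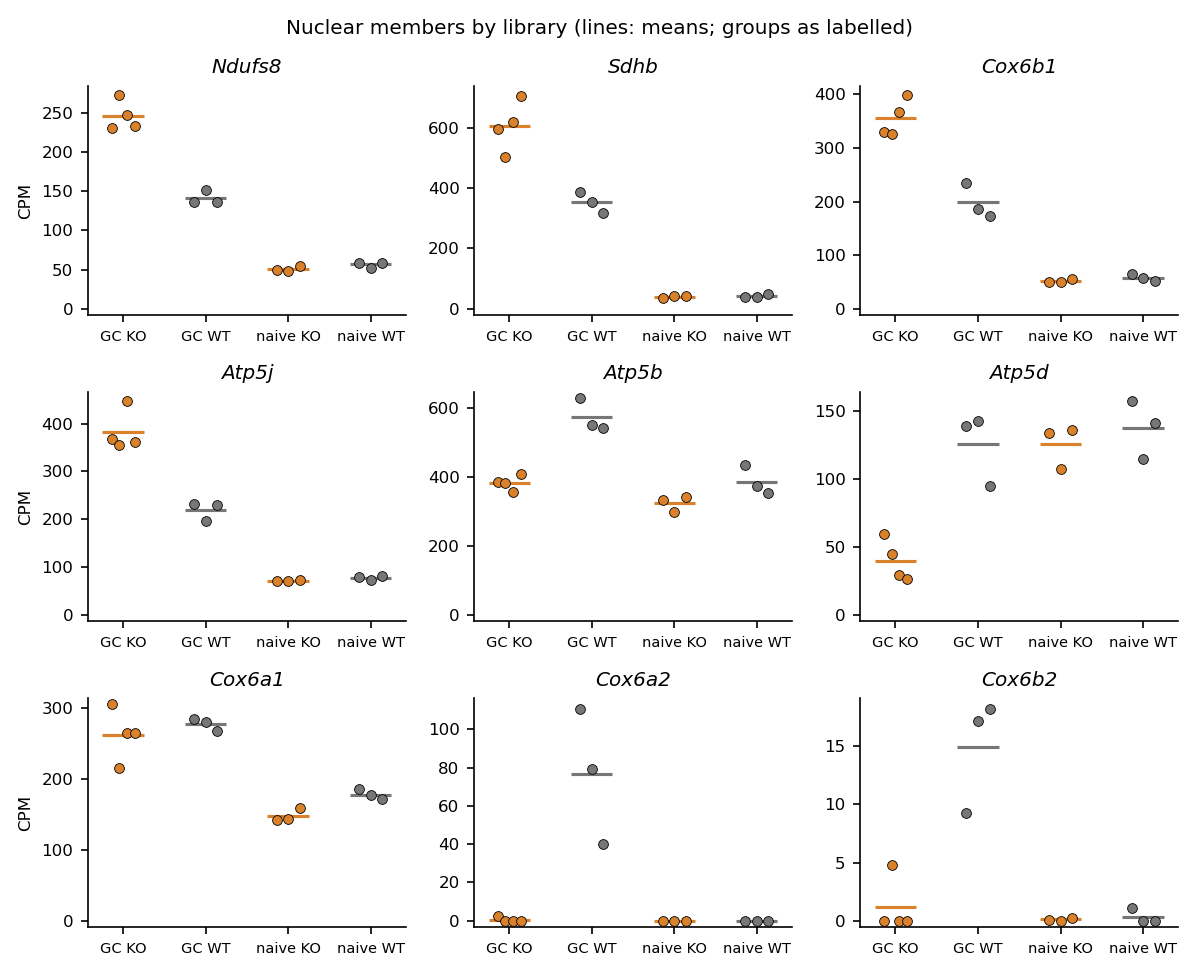
CPM of 9 nuclear members (y axes, linear, each panel its own scale) in KO-labelled (KO, orange) and WT-labelled (WT, grey) libraries of germinal centre (GC) and naive B cells; points are libraries and lines means. Cox6a2 stands at 40.0 to 110.8 CPM in the GC WT libraries and near 0 elsewhere, while Cox6a1 overlaps between the GC groups.

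Counts of nuclear calls in germinal centre libraries fell from 13 to 8 without KO-labelled replicate 1, without its replicate 4 or without WT-labelled replicate 3, and to 5 without WT-labelled replicate 1 or 2. Without both KO-labelled replicate 1 and WT-labelled replicate 3 it was 3, namely 1 higher and 2 lower. Ndufs8, Sdhb, Cox6b1, Cox6a2 and Atp5j were the 5 whose call held in all 7 cases of leaving out 1 library.

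The difference between the germinal centre and the naive KO-labelled over WT-labelled contrast was called for 8 nuclear members of 73, 6 as higher and 2 as lower, beside 5.02% and 2.82% of all genes. The 6 were Cox6b1 (log2 difference 1.00), Ndufs8 (0.94), Atp5a1 (0.92), Atp5j (0.91), Ndufb10 (0.90) and Sdhb (0.84), one or more from each of complexes I, II, IV and V, of which Atp5a1 was not called in the germinal centre test alone. The 2 were Cox6a2 (−5.71) and Atp5d (−1.56). The naive libraries all list Cox6a2 at 0, so its value is the germinal centre log2FC again and no separate result. Cox6b1, Ndufs8, Atp5j and Cox6a2 kept this call in each of 23 alternatives. The count was 4 without naive KO-labelled replicate 1 or WT-labelled replicate 3 and 5 without KO-labelled replicate 3. Each contrast lies within 1 table, and genotype cannot be told apart here from the cell markers that moved with the germinal centre labels.

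The start regions of the nuclear members that rose are shown because 9 were called higher in germinal centre libraries and respiratory genes are known targets of the factors NRF1, GABPA (an ETS protein) and YY1. Promoters of 63 of the 75 nuclear members, 68 regions in all, were found in RefSeq (GRCm38.p6), each from 250 bases before to 50 after a start. Both strands were searched for GCATGCGC (the core of the NRF1 site), CCGGAAG (ETS) and AAGATGGCG (YY1). The core GCATGCGC was in 14.7% of members' regions and 2.71% of all 32851, CCGGAAG in 23.5% and 8.86%, and AAGATGGCG in 10.3% and 1.40%. Of 9 members that rose, 8 had a region, and 5 of them held CCGGAAG, 2 GCATGCGC and 1 AAGATGGCG. Among all 63 members with a region, 16 held CCGGAAG, 10 GCATGCGC and 7 AAGATGGCG. The 30 bases around matches in members whose call held with any 1 library left out follow, 5′ to 3′ on the gene's strand with the match in capitals; the Cox6b1 and Ndufs8 matches are CCGGAAG on the other strand. A match is a description of letters, not a bound site. They lie at chr4:140961206-140961235 and chr4:140961266-140961295 (plus strand), chr7:30626124-30626153 (minus), chr16:84835045-84835074 and chr16:84835019-84835048 (minus) and chr19:3912741-3912770 (minus), in the order given.
Sdhb GCATGCGC: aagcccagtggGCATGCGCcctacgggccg
Sdhb CCGGAAG: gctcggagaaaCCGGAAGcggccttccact
Cox6b1 CCGGAAG: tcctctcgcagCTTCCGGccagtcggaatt
Atp5j AAGATGGCG: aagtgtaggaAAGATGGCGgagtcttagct
Atp5j CCGGAAG: agctgagggacCCGGAAGcacttaccctcc
Ndufs8 CCGGAAG: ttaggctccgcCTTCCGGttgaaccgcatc

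The genome of origin can be compared within a library, since the ratio of summed mt- to summed nuclear CPM does not depend on the library's scale. In germinal centre libraries the 13 mt- genes summed to 27803, 31191, 35576 and 33022 CPM where KO-labelled and to 17118, 18663 and 22530 CPM where WT-labelled. The 75 nuclear genes summed to 13389 to 14041 CPM against 11584 to 12236 CPM. The ratio was 2.06, 2.33, 2.66 and 2.35 against 1.40, 1.55 and 1.94, so the groups did not overlap. The log2 difference of the ratio was 0.53, but 0.28 when the median over members replaced the sum. In naive libraries the mt- sum was 15792, 19347 and 16387 CPM against 8665, 12255 and 10609 CPM, and the nuclear sum 4996 to 5709 CPM against 5517 to 6151 CPM. The ratio there was 3.16, 3.82 and 2.87 against 1.41, 2.20 and 1.92, again apart.

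By complex, the mt- over nuclear ratio of complex I was 0.817 to 0.946 in KO-labelled germinal centre libraries and 0.536 to 0.692 in WT-labelled ones. It was 5.31 to 7.37 against 3.07 to 4.94 for complex III and 2.43 to 2.99 against 1.39 to 2.21 for complex V. Complex IV, which holds mt-Co2 and mt-Co3, was the one whose groups overlapped, at 2.70 to 3.73 against 2.28 to 2.92. In naive libraries all 4 were apart: 1.84 to 2.64 against 0.914 to 1.56 for complex I, 5.17 to 7.16 against 2.13 to 3.44 for complex III, 4.11 to 5.17 against 2.49 to 3.31 for complex IV and 2.67 to 3.30 against 0.978 to 1.78 for complex V. A ratio of sums follows its most abundant genes, here mt-Cytb, mt-Atp6 and mt-Co1. These ratios are sums over chosen members and were not tested.

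**Figure D4:**
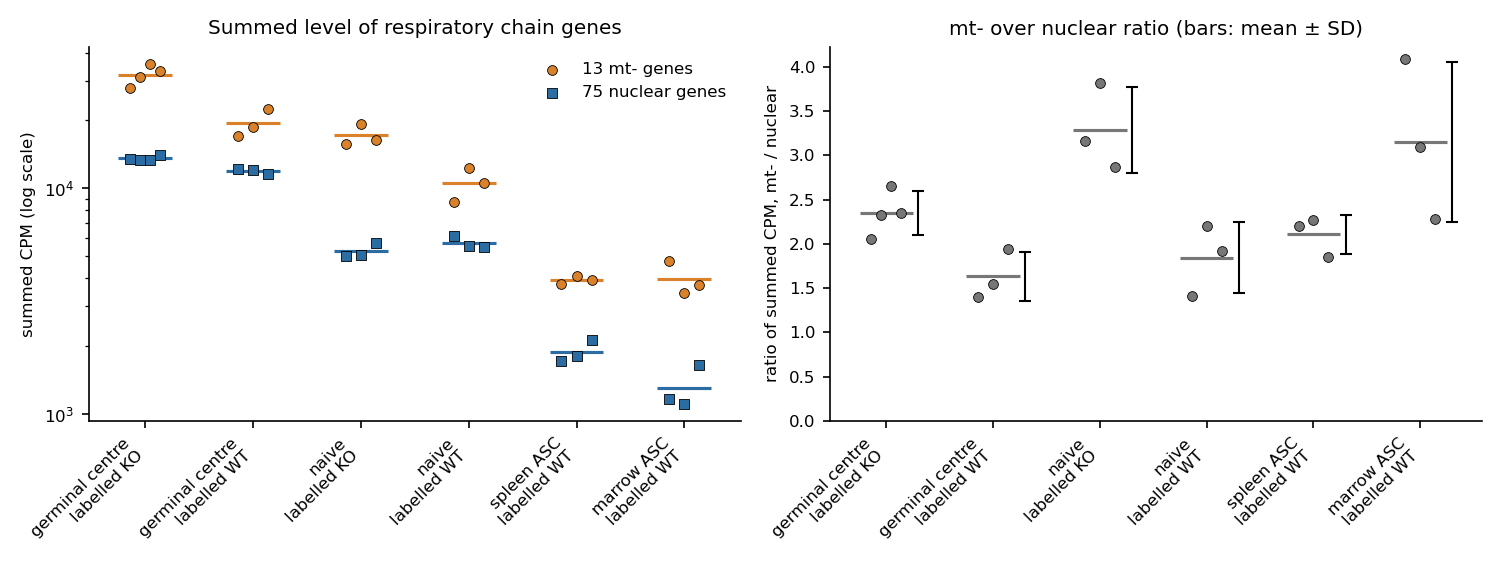
Left, summed CPM (log axis) of the 13 mt- genes (orange) and 75 nuclear genes (blue) in each library of the 6 groups, with lines at the means; right, their ratio with mean and SD. The KO-labelled ratios, 2.06 to 2.66 and 2.87 to 3.82, lie above the WT-labelled ones of the same cell type, 1.40 to 1.94 and 1.41 to 2.20.

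Across the 6 groups levels are described only, because the germinal centre table differs from the other 3, which may also have been made separately. It lists 17939 genes and carries an offset of 0.0001, whereas the others list 19397 each and carry none. Atp5k, a small ATP synthase subunit, stood at 43.6 to 84.0 CPM in the germinal centre table and at most 0.49 CPM in the others. Its pseudogene Atp5k-ps2 stood at 0.88 to 2.9 CPM in germinal centre libraries and 21.4 to 27.6 CPM in naive ones. Ndufv2, Ndufc1 and Atp5g2 also differed widely by table. The mean ratio of mt- to nuclear CPM was 3.28 ± 0.49 (SD, n = 3) in KO-labelled naive cells, 3.15 ± 0.91 (SD, n = 3) in bone marrow antibody-secreting cells, 2.35 ± 0.24 (SD, n = 4) in KO-labelled germinal centre libraries, 2.11 ± 0.22 (SD, n = 3) in spleen antibody-secreting cells, 1.84 ± 0.40 (SD, n = 3) in WT-labelled naive cells and 1.63 ± 0.28 (SD, n = 3) in WT-labelled germinal centre libraries. Every pair of neighbours in this order overlapped in range.

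Per kilobase, mt-Cytb was the highest mt- gene in 4 of the 6 groups and mt-Atp6 in the other 2, while mt-Nd3 was the lowest in 5 and mt-Nd4l in WT-labelled naive cells. In KO-labelled germinal centre libraries mt-Cytb stood at 10737 CPM per kb, mt-Atp6 at 8858 CPM per kb, mt-Co3 at 1351 CPM per kb and mt-Nd3 at 30.9 CPM per kb. The unequal levels within one polycistronic genome were present in every group.

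In antibody-secreting cells immunoglobulin genes took 61.5% to 70.2% of the assigned reads, against 3.7% to 4.1% in naive cells, so levels were also scaled to 1000000 reads outside those genes. On that scale the median mt- gene was 0.12 lower (log2) in spleen antibody-secreting cells than in WT-labelled naive cells and the median nuclear gene 0.18 lower, beside 0.60 lower for all genes. Of 69 nuclear members, 8 were above and 21 below in all libraries, where 13.3% and 45.7% of all genes were. In bone marrow the nuclear members were 5 above and 42 below, where 9.42% and 48.7% of all genes were. Their median log2 difference from naive cells was −0.51 (all genes −0.77) and that of the mt- genes 0.01. These shares compare libraries from separate tables and carry no test.

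Ndufa4, a cytochrome c oxidase subunit, was above naive cells in every library of both tissues. It was at 288, 205 and 316 on that scale in spleen antibody-secreting cells, 141.8, 76.5 and 96.4 in bone marrow ones and 70.8, 54.0 and 47.1 in WT-labelled naive cells. Ndufa1, an anchor of the membrane arm of complex I, stood at 54.2, 71.2 and 65.9, at 36.0, 39.5 and 38.1 and at 14.8, 20.2 and 18.5 on the same scale. Uqcrq, Ndufs5 and Ndufb9 were likewise above naive cells in every library of both tissues. Cox7a2l went the other way, at 178, 157 and 154, at 107.5, 109 and 150.3 and at 482, 570 and 442, and was below naive cells throughout.

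Between the tissues, of 69 nuclear members 19 were below spleen in all libraries and 0 above, beside 17.2% and 2.29% of all genes, with a median log2 difference of −0.37 (all genes −0.22). Of the 13 mt- genes, mt-Nd1 and mt-Nd4 were above in all libraries and 0 were below, with a median of 0.24. The naive cells serve both comparisons above, so those are not independent. The mt- over nuclear ratio in bone marrow was 4.09 in replicate 1, 3.09 in replicate 2 and 2.28 in replicate 3, the widest spread of the 6 groups.

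**Figure D5:**
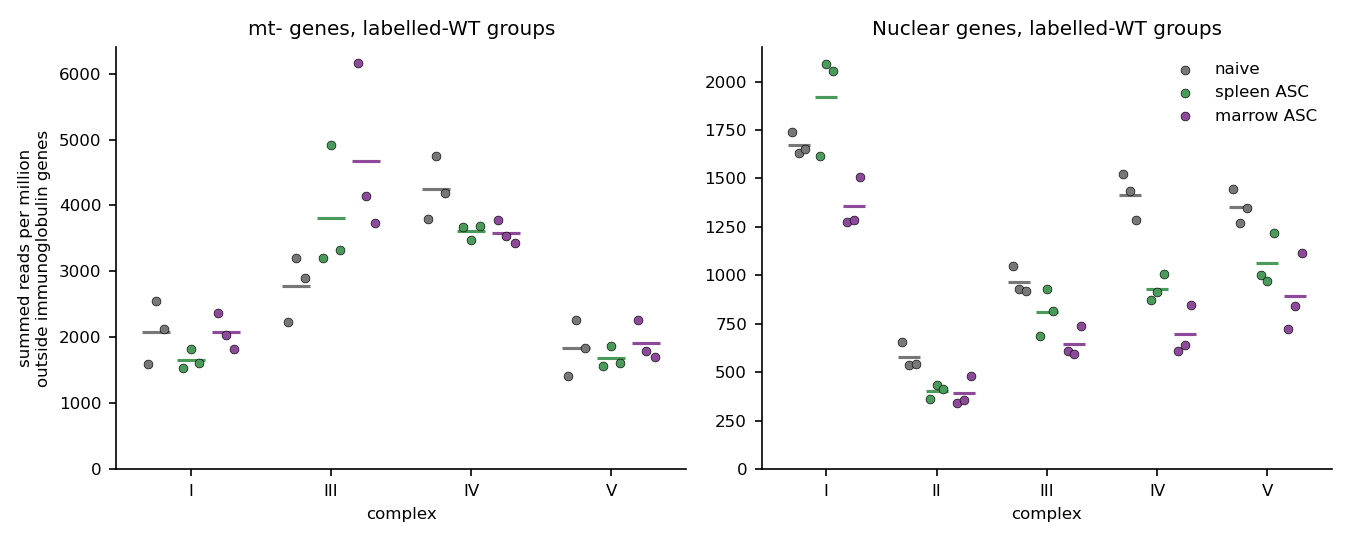
Summed level of the mt- (left) and nuclear (right) members of each complex (x axis) scaled to 1000000 reads outside immunoglobulin genes (y axis, linear), in naive, spleen and bone marrow antibody-secreting cell (ASC) WT-labelled libraries; points are libraries and lines means. Nuclear complex IV runs from 609 to 847 in marrow ASC, below the 1286 to 1522 of naive cells.

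Few genes that serve the chain were called, beside the 13.6% of all genes. In germinal centre libraries, of the genes tested, 0 of 13 complex I assembly factors, 0 of 17 for complex IV, 0 of 6 for complex V and 0 of 3 genes for cytochrome c and its handling were called, and 1 of 9 for complexes II and III (Uqcc1). For the expression of the mitochondrial genome, 1 of 21 genes of transcription and RNA handling (the termination factor family member Mterf1b), 1 of 7 of DNA maintenance (Rrm2b, a ribonucleotide reductase subunit) and 0 of 9 translation factors were called. All 3 named genes were higher, with log2FC values of 1.70 for Uqcc1, 4.12 for Mterf1b, listed at about 0 where WT-labelled, and 3.15 for Rrm2b. Mterf1b, at means of 18.5 CPM in KO-labelled and 0.11 CPM in WT-labelled libraries, passed the filter on low values through the former alone. It could thus only be called higher, and the size of its log2FC depends on the added count. Of 77 mitochondrial ribosomal proteins, 4 were higher and 1 lower. Mrpl27 had 113.2 ± 8.99 CPM (SD, n = 4) in KO-labelled and 55.9 ± 8.45 CPM (SD, n = 3) in WT-labelled libraries. Mrpl37 had 83.7 ± 23.9 CPM (SD, n = 4) and 186.1 ± 14.4 CPM (SD, n = 3). Of 17 citric acid cycle genes 1 was higher (Idh3g), and 0 of 6 biogenesis regulators and 0 of 18 import genes were called. In naive B cells no gene of any of these lists passed.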

How the data were processed

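RNA-seq of sorted mouse B lineage cells was available as 4 tables of CPM (read counts scaled to a fixed total), which the authors deposited with 1 column per library. STAR and mm10 are named in the submitters' processing notes; which counter, gene annotation and strand mode were used is not given in the sources used here. The germinal centre values carry an offset of 0.0001, which was subtracted. Each library sums to 1000000, and low values stood within 0.02 of a whole read in 61.6% to 67.8% of cases (germinal centre) or 85.2% to 88.8% (other tables), so no count test was run.

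Differences were tested on log2(CPM + 1) with limma 3.58.1 in R 4.3.3, over genes averaging 10 CPM or more, within the germinal centre and the naive libraries separately, and as the difference of both effects in 1 fit, with Benjamini-Hochberg adjustment at 0.05. The tests were checked on simulated data, in which the smaller changes were mostly missed, so members that did not pass are not shown to be equal. Antibody-secreting cells were compared by whether libraries overlap. Summaries used Python 3.11.15, pandas 2.3.3, SciPy 1.17.1 and matplotlib 3.10.9, with the median transcript length of each gene from GENCODE M21.

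The members and lists were chosen with earlier results of these data known. Named were all mt- members, nuclear members called in a test (at most 8 in each direction), the highest and lowest per complex, tissue forms with their counterparts, the subunits of succinate dehydrogenase and up to 2 called genes per list; members named for antibody-secreting cells, for differences between tables or as the end of a range were chosen after their values were seen. A further 10 symbols match in some tables only and are no members. Alternatives were pseudocounts of 0.1 and 5, other filters and scalings, a replicate block and leaving out each library.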

Additional observations from a re-analysis of the deposited data

Results flagged for a closer look

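Among the 4 KO-labelled germinal centre libraries, 61 values were examined for a library far from the others, and 6 were found. A rate of about 1 in 20 by chance holds for independent values, and these members and their sums are not independent. Atp5j stood at 447.5 CPM in replicate 3 against 354.7 to 368.1 CPM in the other 3. Cox6a2 stood at 2.47 CPM in replicate 1 and Cox6b2 at 4.77 CPM in replicate 2, each listed at 0 in the other 3. A single value beside 3 zeros is flagged whatever its size. Sdhc stood at 17.4 CPM in replicate 3 against 57.6 to 65.1 CPM. Uqcrq stood at 152.0 CPM in replicate 1 against 187.3 to 193.5 CPM. The summed nuclear members stood at 14041 CPM in replicate 4 against 13389 to 13500 CPM.

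The KO-labelled over WT-labelled contrast differed between germinal centre and naive libraries for 8 of 73 nuclear members by the limma test of the difference, where 7.83% of 8871 genes were called. The count was 4 without naive KO-labelled replicate 1 or naive WT-labelled replicate 3. The log2 difference was 1.00 for Cox6b1 (adjusted p = 0.0123), 0.94 for Ndufs8 (adjusted p = 0.00988), 0.92 for Atp5a1 (adjusted p = 0.0312), 0.91 for Atp5j (adjusted p = 0.00825), 0.90 for Ndufb10 (adjusted p = 0.0186) and 0.84 for Sdhb (adjusted p = 0.0301). It was −1.56 for Atp5d (adjusted p = 0.0321) and −5.71 for Cox6a2 (adjusted p = 0.000431). The naive libraries list Cox6a2 at 0 throughout, so its difference is the germinal centre log2FC again.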

How the results depend on the processing

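No direction of a member named as called reversed under the alternatives run. In germinal centre libraries the 8 mt- calls ranged from 4 to 8 when 1 library was left out and were 6 without both KO-labelled replicate 1 and WT-labelled replicate 3, a choice made after seeing the data. The 13 nuclear calls became 7 without a filter, 8 with trimmed-mean scaling, 8 with immunoglobulin genes out of the total, 5 to 11 with 1 library left out and 3 without that pair. The 8 nuclear differences between cell types ranged from 4 to 9 with 1 library left out. The log2 difference of the mt- to nuclear ratio in germinal centre libraries was 0.53, against 0.28 from the median over members, 0.73 without that pair and 0.43 to 0.67 with 1 library left out; in naive libraries it was 0.85, with 0.67 to 0.99. With the replicate number as a block, 7 mt- and 7 nuclear members were called in germinal centre libraries and 0 in naive ones. Deviations of same-numbered libraries from their group means correlated at −0.047 to 0.079, and those of differently numbered ones at −0.064 to 0.064. With 3 or 4 libraries a group, these values cannot show whether same-numbered libraries were paired. Taking immunoglobulin genes out of the total moved the median of all genes from 0.03 to −0.07. Fewer samples, or more genes tested, go with the fewer calls in the first settings; the cause of the others was not tested. With 3 or 4 libraries a group, a member that was not called is not shown to be equal.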

Other observations

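Ndufb1-ps, a complex I gene listed in the germinal centre table alone and so no member, stood at 126.4, 158.9, 153.2 and 141.9 CPM in the KO-labelled libraries and at 64.8, 65.2 and 60.3 CPM in WT-labelled ones, without overlap. Atp5pb, of the peripheral stalk of ATP synthase and also outside the members by its name, stood at 365.7, 331.1, 330.7 and 291.4 CPM against 310.0, 313.0 and 288.1 CPM, with overlap.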
